A study of Mus musculus with 4 samples.

Results

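The miR-23, miR-24 and miR-27 guide strands come from a pair of gene clusters, and were measured here by TaqMan real-time PCR in bronchoalveolar stem cells (BASCs) with and without depletion of c-Myc. The members were taken by name: every mouse assay for miR-23a, miR-23b, miR-24, miR-27a or miR-27b, without the passenger strands, whose names end in an asterisk. This gave 5 of the 517 mouse miRNA assays. For mmu-miR-23b, mmu-miR-24, mmu-miR-27a and mmu-miR-27b a threshold cycle (CT) was recorded in all 4 samples, while mmu-miR-23a had none in any sample. A CT is the PCR cycle at which the product crosses a fixed level, so a higher CT means less RNA, and a step of 1 cycle is a doubling.

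The controls and the c-Myc depleted cells, 2 samples each, both derive from lungs of ICR mice aged 4 to 6 weeks, sorted as CD31-, CD45-, CD34+ and Sca-1+ cells and plated on irradiated mouse embryonic fibroblasts. The depleted cells carried c-Myc shRNA from a lentivirus. The study describes both recently infected cells and stable lines under puromycin, and does not say which were profiled. The labels do not say which shRNA each depleted sample carried, or what virus, if any, the controls received. They also do not say whether replicates were separate cultures, so p-values measure the spread between these samples, which may be technical. c-Myc itself is not measured by these assays.

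MiRNAs are short RNAs that guide a silencing complex to messenger RNAs, chiefly through the seed, bases 2 to 8. Mice carry the clusters Mir23a, Mir27a, Mir24-2 and Mir23b, Mir27b, Mir24-1, each thought to be made as one precursor, and both yield the same mature miR-24. These miRNAs are abundant in endothelium and mesenchyme, where they are known for roles in angiogenesis and cell differentiation. c-Myc is known to repress miR-23a and miR-23b in tumor cells, which relieves glutaminase, an enzyme of glutamine use, so the question was whether the clusters rise when c-Myc is depleted.

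In the RefSeq annotation of GRCm38.p6 the first cluster lies on the plus strand at chr8:84208518-84208921, where the 3 hairpins take up 404 bases. The other spans 792 bases on the plus strand at chr13:63300484-63301275. Guide sequences from RefSeq are shown to compare the assays that must be told apart, with the seed in capitals.

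miR-24-3p: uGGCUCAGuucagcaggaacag
miR-27a-3p: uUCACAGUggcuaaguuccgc
miR-27b-3p: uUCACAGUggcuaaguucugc
miR-23a-3p: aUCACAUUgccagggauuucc

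miR-27a and miR-27b have the same seed and differ at 1 of 21 bases, C19U, counted from 1 at the 5′ end with the base of miR-27a first. How far each assay separates that base was not tested. RefSeq holds the seed of miR-24 in 4 other mouse miRNAs (miR-5124b, miR-6369, miR-6410 and miR-6413), none of which has an assay in the table. The guide sequence of miR-23b is not shown here.

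The members spanned almost the whole measured range, from the most abundant miRNAs to no signal. miR-24 had a CT of 22.7 and 23.0 in the controls, against 22.8 and 23.0 after depletion (replicate 1 before replicate 2, here and throughout). Among the 517 mouse assays it ranked 1 and 3 in the controls, against 2 and 4 after depletion. By the formula of the methods, which turns CT into copies without a reference RNA, this is 6294 ± 875 copies per cell in control BASCs and 5924 ± 439 after depletion (SD, n = 2 each).

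miR-27a had a CT of 27.9 in each of the 4 samples and ranked between 35 and 52, with 188 ± 1.51 copies in controls and 187 ± 2.70 in depleted cells (SD, n = 2 each). miR-27b followed with a CT of 31.0 and 30.9 in the controls, against 30.0 and 31.0 after depletion, or 23.5 ± 0.943 and 34.2 ± 16.3 copies (SD, n = 2 each). Only depleted replicate 1 stood apart from the others. miR-23b was the faintest member with a signal, at a CT of 32.8 and 34.0 in the controls, against 32.9 and 31.5 after depletion, or 4.73 ± 2.59 and 10.7 ± 6.77 copies (SD, n = 2 each). The order miR-24, miR-27a, miR-27b, miR-23b was the same in all 4 samples. Each assay has its own efficiency, so these distances between members are only as good as the shared formula.

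**Figure D1:**
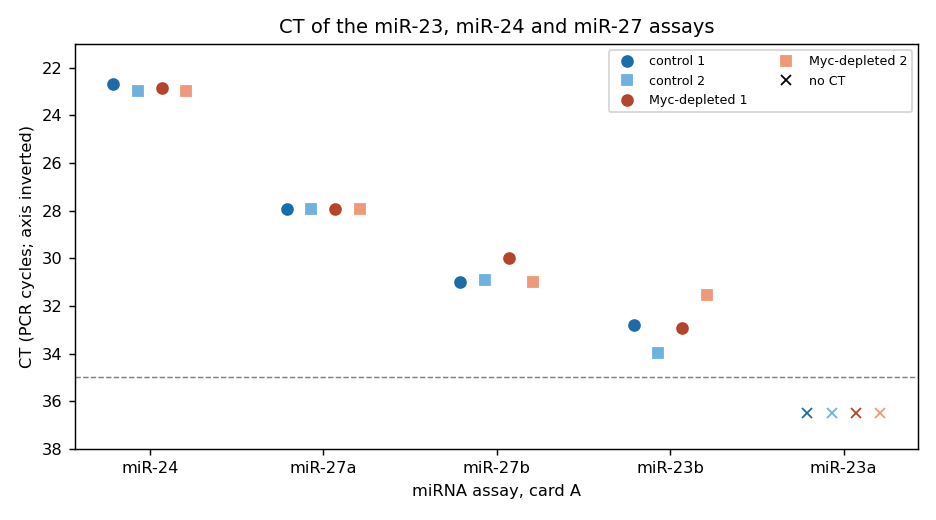
CT in PCR cycles (inverted axis, so more RNA is higher) of the 5 assays in each of the 4 samples. Crosses mark samples with no CT and the dashed line is the ceiling of 35. miR-24 lies near 23, miR-27a at 27.9 in every sample, and miR-23a gave no CT.

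The assay for miR-23a, whose hairpin lies first in the cluster on chromosome 8, gave no CT in 4 of 4 samples. Its neighbours in that cluster were read in all of them: miR-27a as above, and miR-24, which can come from either cluster. The passenger strand of Mir24-2, which the cluster on chromosome 13 does not make, was also present. Whether the miR-23a assay worked on these cards was not tested, since no sample with known miR-23a was run.

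**Figure D2:**
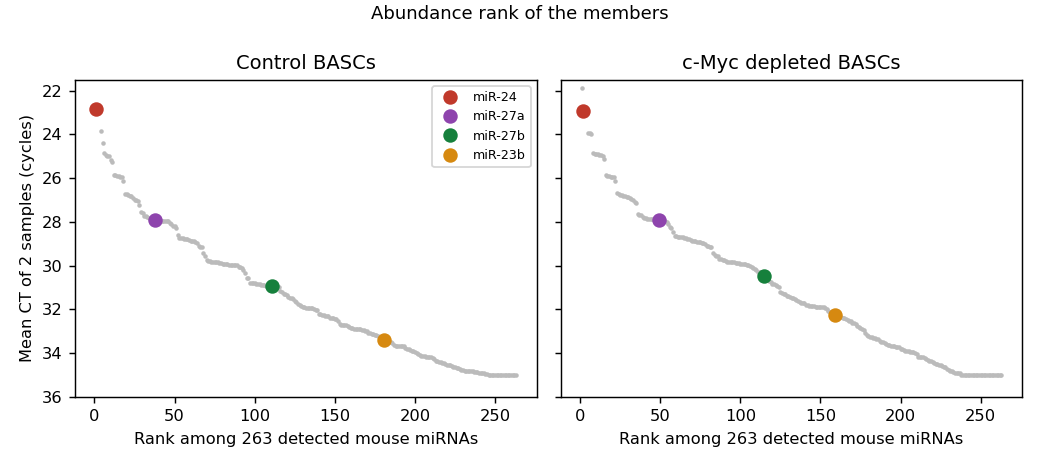
Mean CT of 2 samples (cycles, inverted axis) against rank for the 263 mouse miRNAs with a CT below 35 in at least 1 sample, with the 4 members that had a CT in color. Grey points are the other miRNAs. miR-24 has the lowest mean CT in the controls and the next lowest after depletion, behind miR-709, and miR-23b is toward the low end.

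As in the methods of the study, changes were computed on ΔCT, the CT from which the mean CT of the card's own 4 U6 wells was subtracted, with CT above 35 or missing set to 35. The log2 change is positive when the level was higher after c-Myc depletion. limma was fitted to the 80 mouse miRNAs whose lowest ΔCT was below 10, which kept 2 of the 5 members, miR-24 and miR-27a. miR-27b and miR-23b had lowest ΔCT of 11.1 and 12.7 and were not part of that fit.

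Neither miR-24 nor miR-27a was called changed at an adjusted p below 0.05 in limma (0 of 2 tested members), against 32.5% of all tested miRNAs, which were 20 higher and 6 lower. That share moved with the reference and with the fit. Of the 80, 18 were called with the small RNAs snoRNA135 and snoRNA202 as the reference, and 28 with no reference subtracted. With sample medians 3 were called, with card medians 1, and with a replicate block in limma 0 (26 at an unadjusted p below 0.05). At an unadjusted p below 0.05 the count of members was also 0 in limma. The limit on ΔCT needs only 1 sample below 10, so it can keep a miRNA through the group where its level is high. That was so for miR-34a and miR-126-3p, both called, and such cases can raise the share of 32.5%. With ΔCT below 10 in all 4 samples, 17 of 55 were called.

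The ΔCT of miR-24 was 3.80 and 3.87 in the controls, against 3.98 and 4.16 after depletion. Its values in the depleted samples were both slightly lower in level, so the groups did not overlap. The log2 change was -0.23 (standard error 0.13, adjusted p = 0.302 from limma), with a 95% interval of the fold from 0.650 to 1.11. A doubling of miR-24 thus lies outside the interval, which measures only the spread between these samples, and that may be technical.

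The ΔCT of miR-27a was 9.02 and 8.83 in the controls, against 9.08 and 9.07 after depletion. Again the groups did not overlap, and the change was small: -0.15 on the log2 scale (standard error 0.13, adjusted p = 0.453 from limma), with a 95% interval of the fold from 0.686 to 1.18. Groups that did not overlap in ΔCT were common, at 67.5% of the tested miRNAs. Before the subtraction of U6 the CT of miR-27a spanned only 0.0295 cycles over the 4 samples. Of the 189 mouse miRNAs with a CT below 35 in all samples, 1 spanned less, and their median was 1.03. The U6 mean on card A ran from 18.8 to 19.1, so nearly all of the spread in the ΔCT of miR-27a was that of U6.

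**Figure D3:**
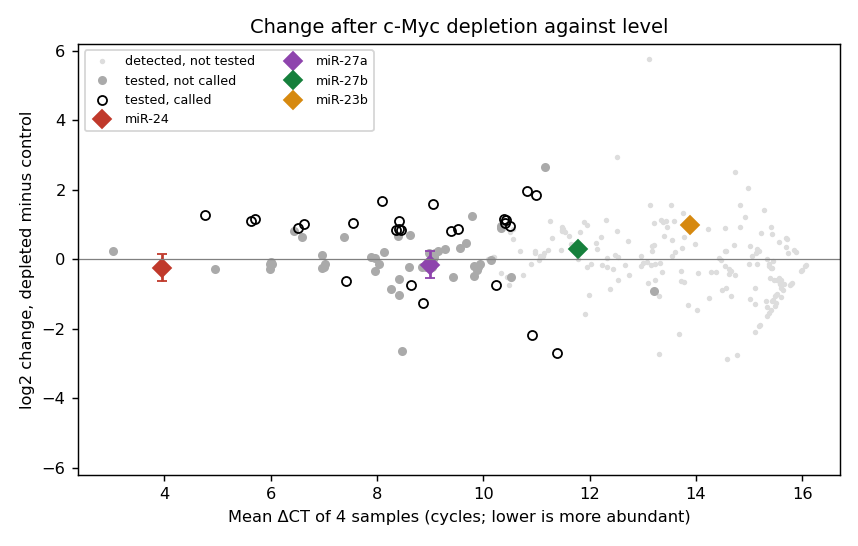
log2 change (depleted minus control, ΔCT to U6) against mean ΔCT of the 4 samples in cycles, for 263 detected mouse miRNAs. Open circles were called by limma at an adjusted p below 0.05, and bars on miR-24 and miR-27a are 95% intervals of the change. Both intervals include 0.

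All members are on card A, where 64 miRNAs were tested with a median log2 change of 0.23. There 20 were called higher and 1 lower, and miR-34a among the 20 passed the limit on ΔCT only through the depleted samples. miR-24 and miR-27a lay 0.46 and 0.38 below that median (differences of -0.46 and -0.38 on the log2 scale), and 10 and 17 of the 64 had a lower change than they did. The 2 tested members were thus not among the card A miRNAs that rose.

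The ΔCT of miR-27b was 12.1 and 11.8 in the controls, against 11.1 and 12.1 after depletion. The groups overlapped, since depleted replicate 2 was the lowest in level of the 4 samples and replicate 1 the highest. The change was 0.31 on the log2 scale over all samples and -0.21 without depleted replicate 1, so its direction rested on that sample. It also turned negative with sample medians as the reference (-0.08), with card medians (-0.20), and under quantile normalization (-0.25).

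The ΔCT of miR-23b was 13.9 and 14.9 in the controls, against 14.1 and 12.7 after depletion. Depleted replicate 1 was slightly lower in level than control replicate 1, so the rise in the mean came from the remaining pair. The mean log2 change was 0.98, which is 1.98-fold, with values from 0.29 without depleted replicate 2 to 1.67 without depleted replicate 1. With the CT ceiling at 32, below 3 of its 4 CT values, the change was 0.077.

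When the limit on ΔCT was dropped, limma was fitted to all 263 detected miRNAs, of which 0.760% were called. None of the 4 members with a CT was called (0 of 4, and 0 at an unadjusted p below 0.05). For miR-23b the adjusted p was 0.446, and the 95% interval of the fold ran from 0.513 to 7.62. For miR-27b the adjusted p was 0.730, with an interval from 0.500 to 3.07. Both intervals include 1, and a rise of miR-23b after c-Myc depletion was not resolved with these samples.

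**Figure D4:**
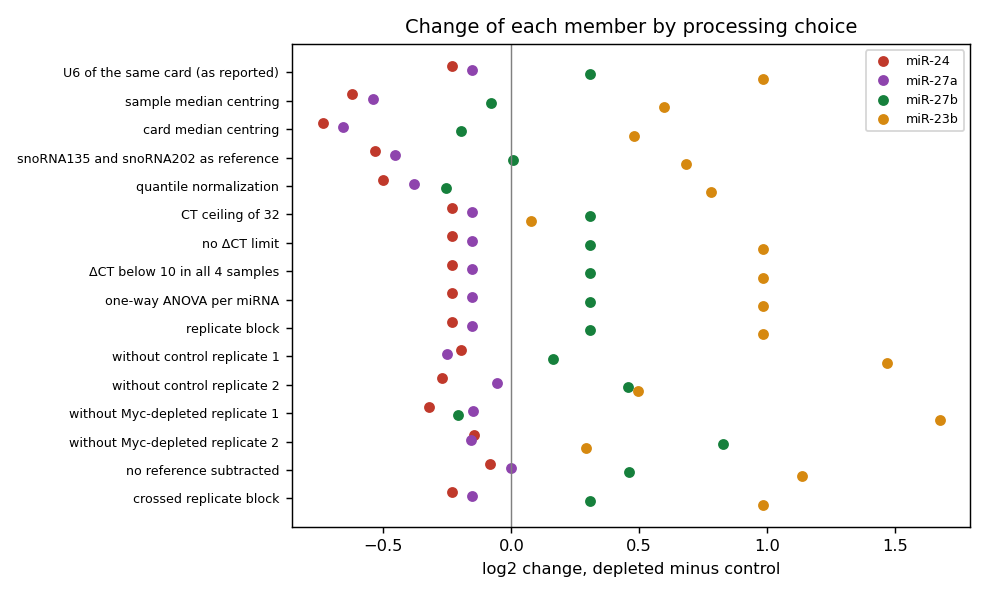
log2 change (depleted minus control) of the 4 members under each processing choice, 1 line per choice. miR-24 and miR-27a stay at or below 0, miR-23b stays above 0, and miR-27b falls on both sides.

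Because the 4 members with a CT share card A, the difference in CT between a pair of them within a sample does not depend on U6. Of the 6 pairs, miR-24 and miR-27a varied least in distance over the 4 samples: CT of miR-24 minus CT of miR-27a was -5.22 and -4.95 cycles in the controls, against -5.10 and -4.92 after depletion. CT of miR-27a minus CT of miR-27b was -3.06 and -2.96 cycles in the controls, against -2.03 and -3.07 after depletion. miR-23b and miR-27b, neighbours in the cluster on chromosome 13, did not keep a fixed distance: miR-23b was higher in CT by 1.81 and 3.08 cycles in the controls, against 2.98 and 0.559 after depletion. In all 6 pairs the control and depleted values overlapped. The exact two-sided permutation p, which cannot fall below 0.333 with 2 samples against 2, was 0.667 or 1 for each pair, and 0.800 or 1 after Benjamini-Hochberg adjustment over the 6 pairs.

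The passenger strands are the other arms of the same hairpins, and unlike miR-24 itself those of Mir24-1 and Mir24-2 differ between the clusters. The RefSeq sequences are shown because they alone separate the sources of miR-24, with the bases after the shared first 16 in capitals.

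miR-24-1-5p: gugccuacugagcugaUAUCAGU
miR-24-2-5p: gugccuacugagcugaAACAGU

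Of 6 passenger strands listed, 4 had a mouse assay, all on card B with 2 wells each, and 3 of them were detected. miR-24-1*, from the cluster on chromosome 13, had 2 wells in each sample and a single CT among them, 35.98 in control replicate 2, above the ceiling. miR-24-2*, from the cluster on chromosome 8, was read in every well, with a mean CT of 30.0 and 29.9 in the controls, against 29.1 and 29.2 after depletion. miR-27a*, from the same cluster, had a mean CT of 29.7 and 30.0 in the controls, against 29.2 and 29.8 after depletion. miR-27b* was fainter, at 33.2 and 33.1 in the controls, against 33.4 and 32.8 after depletion, where 1 well of depleted replicate 1 had no CT and was set to 35. The passenger strands read from the cluster on chromosome 8 thus had lower CT values than those from chromosome 13. Among the guides miR-27a likewise had a lower CT than miR-27b, whereas miR-23b, on chromosome 13, had a CT in all samples and miR-23a, on chromosome 8, had none.

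The mean CT of U6 was lower (more U6) after depletion by 0.72 cycles on card B and by 0.15 on card A, and subtracting it moved the passenger values. For miR-24-2* the change was 0.79 in CT and 0.06 after U6. For miR-27a* it went from 0.34 in CT to -0.38 after U6, and for miR-27b* from 0.08 to -0.64. None of these had a ΔCT below 10 in any sample, and in the fit without that limit their adjusted p from limma were 0.873, 0.453 and 0.407.

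A list of 19 other miRNAs that have been described as repressed by c-Myc was set beside the members, and all 19 were detected. Of the 10 that were tested, 3 were called higher and none lower in limma, where 25.0% of all tested miRNAs were called higher. The median log2 change was 0.06, close to the 0.05 of all 80 tested miRNAs. Apart from miR-22, however, the tested ones are on card A. There the median of the 64 tested miRNAs was 0.23, above that of the list, and 20 of the 64 were called higher. The 3 were miR-34a, a p53 target that slows the cell cycle (log2 change 1.17, adjusted p = 0.0107), miR-26a (1.10, adjusted p = 0.0190) and miR-30c (0.87, adjusted p = 0.0279). miR-34a passed the limit of 10 on ΔCT only through the depleted samples (9.80 and 9.79, against 11.1 and 10.9 in the controls). Its place among the 3 was thus favored by the filter. miR-26a and miR-34a were picked by the study on these samples and are no independent evidence for the list. miR-16 and miR-29a, named after their values were seen because their CT lay near that of miR-24, differed by -0.27 and -0.25, with adjusted p-values of 0.192 and 0.411.

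Over the 4 samples, the tested miRNAs whose centred ΔCT profile was nearest to that of miR-24 were miR-182 and miR-484, at root mean square differences of 0.036 and 0.061 cycles. Those nearest to miR-27a were miR-92a (0.010) and miR-155 (0.032). The ΔCT profile of miR-27a is nearly that of U6, so nearness to it says little more than that a CT was flat. miR-27b was nearest to miR-296-5p (0.18) and miR-146b (0.24), and miR-23b to miR-26a and miR-132, at 0.59 for both. None of these measures included more than 4 samples.

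Markers of other cells were read in the same samples, in summed copies per cell. The 5 assays for miRNAs of fibroblasts and other mesenchyme (miR-143, miR-145, miR-199a-3p, miR-199a-5p and miR-214) were all detected, miR-199a-5p in 2 of 4 samples, and summed to 3344 and 3325 in the controls, against 4984 and 4857 after depletion. The change was not shared by all of them. miR-214 was called higher (log2 change 1.02, adjusted p = 0.0115 from limma). miR-199a-3p was also higher but not called (0.82, adjusted p = 0.0722 from limma). miR-143, miR-145 and miR-199a-5p had log2 changes of 0.04, -0.13 and -0.90, the last with a standard error of 2.97. Of 7 epithelial miRNAs 5 were detected, with sums of 43.3 and 8.51 in the controls, against 2.88 and 4.36 after depletion. miR-141, miR-200b and miR-429 had a CT below 35 only in control replicate 1, and miR-200a only in the controls. miR-203 and miR-205 had no CT below 35. These 7 miRNAs were thus absent or low in cells labelled as bronchoalveolar stem cells. Other miRNAs known from epithelium were not all low: miR-182 had a mean CT of 28.8 over the 4 samples. The related miR-183 and miR-96 were fainter, at a mean CT of 32.6 and 33.8. The endothelial strands miR-126-3p and miR-126-5p summed to 106 and 104 in the controls, against 28.7 and 26.0 after depletion. Of the blood list 5 of 5 were detected, at 4.51 to 30.6 in the controls and 1.57 to 12.9 after depletion. Its miR-142-3p, miR-142-5p and miR-451 had a CT below 35 only in control replicate 1. Of the muscle list 2 of 3 were detected, at most 24.2. The sort had removed CD31+ and CD45+ cells, which include endothelium and blood cells, before culture. In bulk RNA, fewer cells of a type and less RNA per cell cannot be told apart. The study gives later passages both on feeder fibroblasts and on collagen without them, so whether feeders were present in these samples is not clear. The part of other cells in the level of miR-24 was not tested.

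The CT values were not spread evenly within a cycle. Of the 1366 CT values in the table, 604 (44.2%) lay 0.9 cycles or more past a whole number, and the share by sample ran from 31.7% to 54.5%. Among the 16 CT values of the members it was 11. All 4 values of miR-27a were in that range, and so were 29.97, 30.98 and 30.99 for miR-27b, where the one sample that stood apart was lower by about a whole cycle. The changes of miR-24 and miR-27a were smaller than 1 cycle. What produced this pattern was not tested.

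**Figure D5:**
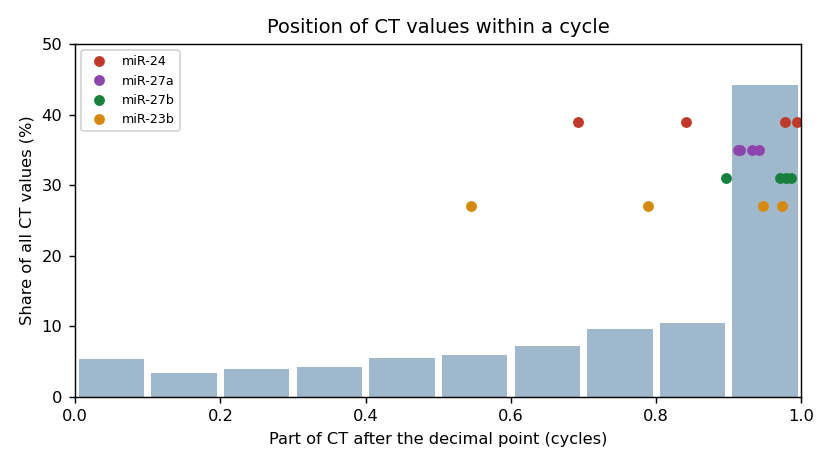
Bars give the share (%) of all 1366 CT values by the part of the CT after the decimal point, in cycles. Points mark the 4 CT values of each member, with a height that only separates the members. The last bar holds 44.2% of all values and 11 of the 16 member values.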

How the data were processed

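MiRNA levels were measured in 4 samples on TaqMan Rodent MicroRNA Array cards A and B (2 cards of 384 wells). The authors deposited one table of CT per well, not normalized, which by the methods came from the RQ manager software. Their analysis used Partek 6.4 per the labels. The messenger RNA arrays of the study were not analysed here.

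From the CT, 35 was entered for wells without a CT or above that ceiling, duplicate wells were averaged per assay, and ΔCT was taken to the card's mean of 4 U6 wells. limma 3.58.1 in R 4.3.3 (lmFit, eBayes) was fitted to minus ΔCT of the 80 mouse miRNAs with a lowest ΔCT below 10, with Benjamini-Hochberg adjustment. To obtain copies per cell, (40 - CT)/3.34 was used as the exponent of 10 and the result divided by 22, as in the methods. Other steps used scipy 1.17.1 and pandas 2.3.3 (Python 3.11.15). The fit was also run on simulated data with independent noise. That simulation had no CT ceiling, limit on ΔCT or U6, so it does not show accuracy on these samples. The samples had a CT in 334 to 351 wells, and the plant control assay in none. The number of samples limits the precision.

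The members and lists were chosen with earlier results of these data known. Named besides the members were their passenger strands, miRNAs described as repressed by c-Myc, cell type markers, and the 2 miRNAs nearest in profile to each member. No CT of the members has more than 6 decimals. Alternatives were other references (sample and card medians, snoRNA135 with snoRNA202, quantile normalization), a ceiling of 32, other limits on ΔCT, ANOVA, a replicate block and leaving out each sample. The fit with no reference and the crossed pairing were added after the data were seen.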

Additional observations from a re-analysis of the deposited data

How the results depend on the processing

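miR-24 and miR-27a stayed below 0 under all 15 alternatives, with log2 changes from -0.74 to -0.08 and from -0.66 to -0.003. The ceiling of 32, the limits on ΔCT, ANOVA and both replicate blocks could not move these changes. Only the choice of reference and the left-out samples bear on their sign. Relative to the median of all tested miRNAs, which moved from 0.05 with U6 to -0.27 under sample median centring and 0.27 with no reference, miR-24 lay at -0.29, -0.35 and -0.35. It lay at -0.56 with card medians, -0.50 with quantile normalization and -0.03 without control replicate 1. With a CT ceiling of 32 the change of miR-23b was 0.077, since that ceiling lies below 3 of its 4 CT values, and under quantile normalization that of miR-27b was -0.25. No alternative called a member, which says little where few miRNAs were called at all.

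The number of miRNAs called among all tested was 26 with U6, 3 with sample medians, 1 with card medians, 4 with quantile normalization, 2 with no limit on ΔCT, 17 with ΔCT below 10 in all samples, 3 by ANOVA, and 0 to 25 with a sample left out (1 and 0 without depleted replicate 1 and 2). The causes were not tested. With the replicate block limma called 0 (26 at an unadjusted p below 0.05). Same-numbered samples deviated in opposite directions (correlation -0.44), and with crossed pairs 33 were called. Leaving out a sample left 2 to 5 of the 6 pairs of members without overlap, where 1 group was a lone sample. A lone sample often falls outside the other group by chance, so these counts show no difference.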

Other observations

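CT values 0.9 cycles or more past a whole number made up 52.5% of the 708 on card A and 35.3% of the 658 on card B, and 31.3% of the 32 CT values of U6.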
